A study of Homo sapiens with 6 samples.

Results

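RNase P and RNase MRP are RNA-protein enzymes of the nucleus that share most of their protein subunits. The 10 genes described here encode those proteins: POP1, POP4, POP5, POP7, RPP14, RPP21, RPP25, RPP30, RPP38 and RPP40. They were picked by symbol from a deposited table of 17280 genes, and all 10 were found there. The group was chosen because POP1 was among the largest rises in these libraries, so its change between the groups is given as a description with no p-value, and nothing is read from how many members a test called.

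RNA of CAL-27, an established line of human tongue squamous cell carcinoma, was sequenced from cells grown as floating spheres, a culture used to enrich for stem-like cells. There were 3 control libraries (CON) and 3 libraries titled LF3, after an inhibitor of the beta-catenin/TCF4 interaction; the series gives the exposure as 24 h. The treatment field of the LF3 libraries instead names elesclomol, a copper carrier, together with copper, so the agent is not settled by the labels and the groups were taken from the titles. Separate cultures are not stated for the replicates, so the p-values rest on a spread between libraries that may be technical. Both groups are the same line in the same culture form, and in such bulk RNA a change in the mix of cells cannot be told apart from a change of RNA per cell.

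RNase P cuts the leader off precursor tRNAs, and RNase MRP cuts the precursor of ribosomal RNA in the first internal transcribed spacer. In both, an RNA carries out the cleavage and the proteins hold it in shape. Pop1, the largest protein, clamps the RNA. POP7 and RPP25 encode a pair of small Alba-fold proteins that bind the RNA together. POP5, RPP14, RPP30 and RPP40 encode a core subassembly, and POP4 (protein Rpp29), RPP21 and RPP38 encode another set that contacts the substrate side. Rpp21 is known chiefly from RNase P. The RNA components, RPPH1 and RMRP, were not found by symbol among the deposited genes, so their levels could not be described.

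Values are in TPM, a length-corrected share of all transcripts scaled to a fixed total, so levels of different genes can be set side by side. The depth is unknown, because TPM does not keep it, and counting intervals are therefore not given. All 10 squamous and epithelial markers were listed above 0, with a summed level of 1501 to 1521 TPM in CON and 1885 to 1933 TPM in LF3, although the basal keratin gene KRT14 stayed at 0.29 to 0.83 TPM. Of these, 5 were called higher and 3 lower by limma (3 and 5 after median-ratio scaling), among them the keratin genes KRT5 (log2 fold change 2.15) and KRT17 (-1.75). Of 10 markers of other cell types, 9 were in the table with a summed level of 349 to 363 TPM in CON and 55.8 to 61.8 TPM in LF3. CD68, a lysosomal gene of macrophages that many lines also express (mean 334 TPM in CON and 47.4 TPM in LF3), made up 93.7% of that sum in CON and 80.5% in LF3. The mesenchymal genes COL1A1 (mean 9.27 and 4.31 TPM) and ACTA2 (mean 10.2 and 4.79 TPM) were also lower in LF3. The leukocyte gene PTPRC was at 0.02 TPM or less in every library. The part of this difference in the results below was not tested.

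The upstream sequences of 3 members are shown here because they span the range of responses described below. Each is the 250 bases before the annotated start, from RefSeq on GRCh38.p14, written from the distal end to the base before the start. RPP40 had the largest well-replicated difference among the members with an entry, RPP21 the smallest, and POP7 carried both motifs that were found in any member. Capitals mark matches to the searched motifs. The RPP40 window is chr6:5004038-5004287 on the minus strand, that of RPP21 is chr6:30344906-30345155 on the plus strand, and that of POP7 is chr7:100705871-100706120 on the plus strand.
RPP40: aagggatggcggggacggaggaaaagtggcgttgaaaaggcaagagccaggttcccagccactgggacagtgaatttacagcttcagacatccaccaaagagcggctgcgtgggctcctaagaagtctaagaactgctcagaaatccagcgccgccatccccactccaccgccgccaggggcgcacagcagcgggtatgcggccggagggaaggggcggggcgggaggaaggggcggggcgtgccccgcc
RPP21: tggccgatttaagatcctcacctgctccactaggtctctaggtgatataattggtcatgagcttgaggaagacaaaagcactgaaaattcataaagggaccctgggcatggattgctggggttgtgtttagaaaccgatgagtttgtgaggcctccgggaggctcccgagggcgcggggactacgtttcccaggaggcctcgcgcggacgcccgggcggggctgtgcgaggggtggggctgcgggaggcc
POP7: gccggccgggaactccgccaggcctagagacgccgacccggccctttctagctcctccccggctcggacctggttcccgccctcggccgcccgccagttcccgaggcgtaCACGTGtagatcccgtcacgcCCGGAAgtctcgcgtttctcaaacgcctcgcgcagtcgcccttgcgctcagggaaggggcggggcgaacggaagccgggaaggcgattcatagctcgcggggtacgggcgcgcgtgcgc

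Windows were found for 9 members, and POP1 had no entry. The searched motifs were CACGTG (the E-box bound by MYC and related factors), TTCCGG or its reverse complement CCGGAA (the core of ETS-factor sites), and TATAAA or its reverse complement TTTATA (the TATA box). CACGTG reads the same on both strands. It was present in 1 of 9 members, POP7, starting 140 bases before the start, against 7.71% of the 19787 windows of genes in the table. The ETS core was present in POP7 (CCGGAA, 119 bases before the start) and RPP38 (TTCCGG, 162 bases before it), 2 of 9 members against 19.2% of windows. No member held a TATA box in this window, against 7.85% of windows. The G and C content ran from 52.0% in RPP30 to 71.2% in POP7, with a median of 64.8% against 62.8% over all such windows. A match is a run of letters and not a measured binding site.

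The LF3 libraries held more RNA of nearly every subunit gene. The summed level of the 10 genes was 219, 213 and 210 TPM in CON replicates 1 to 3 and 454, 428 and 452 TPM in the LF3 replicates, a ratio of means of 2.08. Without RPP21, the most abundant subunit in CON, the sum went from 110 ± 1.71 to 337 ± 5.93 TPM (mean ± SD, n = 3), a ratio of 3.07. All LF3 libraries lay above all CON libraries in 9 of 10 genes, and RPP21 was the one whose groups overlapped; over all tested genes the groups did not overlap in 86.2%. Among all 12195 tested genes, those with a mean of at least 1 TPM, 53.5% had every LF3 library above every CON library.

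**Figure D1:**
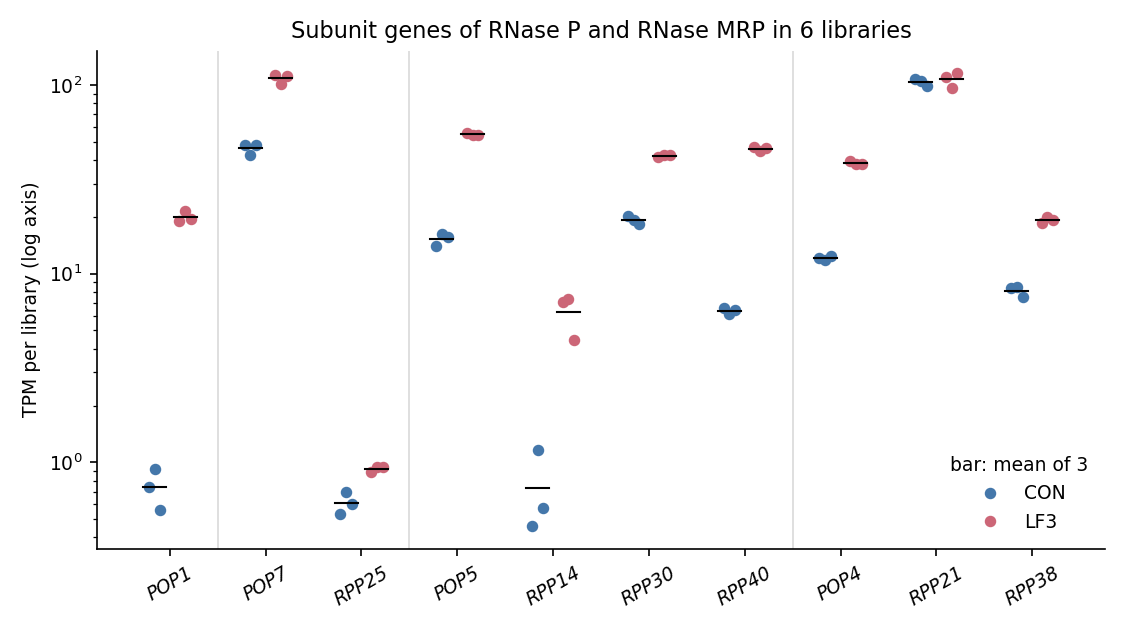
TPM of each subunit gene in each library on a log axis, with the mean of 3 libraries as a black bar; CON is blue and LF3 red, and vertical lines separate POP1, the Alba pair, the core set and the substrate-side set. LF3 points lie above CON points in every gene except RPP21, whose points overlap, and the widest gap is that of POP1.

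POP1 showed the largest difference of the 10. It stood at 0.74, 0.92 and 0.56 TPM in CON and at 19.1, 21.6 and 19.5 TPM in LF3. It was thus under 1 TPM in every control library, and its LF3 mean was near the middle of the tested genes. Its level lay above 0.935% of tested genes in CON and above 50.2% in LF3. The filter used the mean over all 6 libraries, so genes this low in CON were kept only where LF3 was higher. The low position in CON therefore partly reflects the filter. The ratio of means was 27.1. On the log2(TPM + 1) scale, which understates the change of low genes, the difference was 3.60 ± 0.097 (limma standard error), rank 10 of 12195 tested genes for rise, and with a pseudocount of 0.1 it was 4.61.

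The Alba pair was uneven. POP7, which encodes Rpp20, stood at 47.9, 42.8 and 48.3 TPM in CON and at 113, 102 and 111 TPM in LF3, a ratio of means of 2.34 and a log2 fold change of 1.21 ± 0.059. Its partner RPP25 was the lowest member in every LF3 library and overlapped POP1 and RPP14 in CON, at 0.53, 0.70 and 0.60 TPM in CON and 0.89, 0.94 and 0.94 TPM in LF3. RPP25 had a mean of 0.767 TPM over the 6 libraries, under the 1 TPM needed for testing, so no fitted change is given; its ratio of means was 1.51. Its paralog RPP25L, which is not among the 10, was far more abundant, averaging 23.8 ± 1.81 TPM in the controls and 32.0 ± 1.64 TPM in the LF3 group. RPP25 made up 2.51 ± 0.467% of the summed TPM of this paralog pair in CON and 2.81 ± 0.0592% in LF3. RPP25L rose by 0.41 ± 0.066 on the log2 scale (limma adjusted p = 0.000132), a call that was lost after median-ratio scaling (0.15, adjusted p = 0.0718) and quantile normalization (0.078, adjusted p = 0.327).

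All 4 genes of the core set were higher in LF3, by unequal factors. RPP40 stood at 6.56, 6.11 and 6.41 TPM in CON and at 47.2, 44.6 and 46.3 TPM in LF3, and its tight replicates gave a coefficient of variation of 3.60% and 2.90%. Its ratio of means was 7.23 and its log2 fold change 2.67 ± 0.058. This difference came after that of POP1 and before that of RPP14 on this scale, while by ratio of means, and with a pseudocount of 0.1, RPP14 came before RPP40. POP5 stood at 14.1, 16.3 and 15.7 TPM in CON and at 55.9, 54.5 and 54.4 TPM in LF3, a ratio of 3.58 and a log2 fold change of 1.78 ± 0.060. RPP30, which belongs to the structural core of the enzyme, stood at 20.2, 19.4 and 18.2 TPM in CON and at 41.5, 42.4 and 42.7 TPM in LF3. It had the smallest ratio of the set, 2.19, with a log2 fold change of 1.09 ± 0.054. No CON library of these 3 genes reached the level of any LF3 library.

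RPP14 was the least precise of the tested members. It stood at 0.46, 1.16 and 0.57 TPM in CON and at 7.12, 7.31 and 4.47 TPM in LF3, with coefficients of variation of 51.6% and 25.2%. Its log2 fold change was 2.07 ± 0.18, and 3.005 with a pseudocount of 0.1. RPP14 shares its transcript and its whole annotated span with HTD2, which encodes an enzyme of mitochondrial fatty acid synthesis, and the way reads were divided between the pair was not given in the sources used here. HTD2 stood at 3.87, 3.59 and 3.83 TPM in CON and at 4.09, 5.47 and 6.98 TPM in LF3. LF3 replicate 3 held the lowest RPP14 and the highest HTD2 value of its group. The share of the pair assigned to RPP14 ran from 10.6 to 24.4% in CON and from 39.0 to 63.5% in LF3. The sum of both, which does not depend on that split beyond the lengths used, was 4.33, 4.75 and 4.4 TPM in CON and 11.2, 12.8 and 11.4 TPM in LF3, a ratio of 2.63 where RPP14 alone gave 8.63.

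The substrate-side set held the exception. POP4, which encodes Rpp29, stood at 12.1, 11.9 and 12.4 TPM in CON and at 39.8, 38.2 and 38.1 TPM in LF3, a ratio of 3.19 and a log2 fold change of 1.59 ± 0.053. RPP38, an RNA-binding protein of the L7Ae fold, stood at 8.39, 8.52 and 7.52 TPM in CON and at 18.5, 20.0 and 19.2 TPM in LF3, a ratio of 2.36 and a log2 fold change of 1.15 ± 0.069. RPP21, in contrast, stood at 108, 105 and 99.4 TPM in CON and at 111, 96.5 and 115 TPM in LF3. The lowest RPP21 value of all was in an LF3 library and so was the highest, and the ratio of means was 1.03.

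The sign of the RPP21 difference depended on scaling. It was 0.046 ± 0.063 on the log2 scale as deposited, -0.23 after median-ratio scaling and -0.27 after quantile normalization, and -0.0063 to 0.12 when a library was left out. RPP21 overlaps an annotated read-through transcript, TRIM39-RPP21, which was listed at 0 to 0.84 TPM. RPP40 overlaps an antisense gene, and strand-specific counting is not stated in the sources used here.

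**Figure D2:**
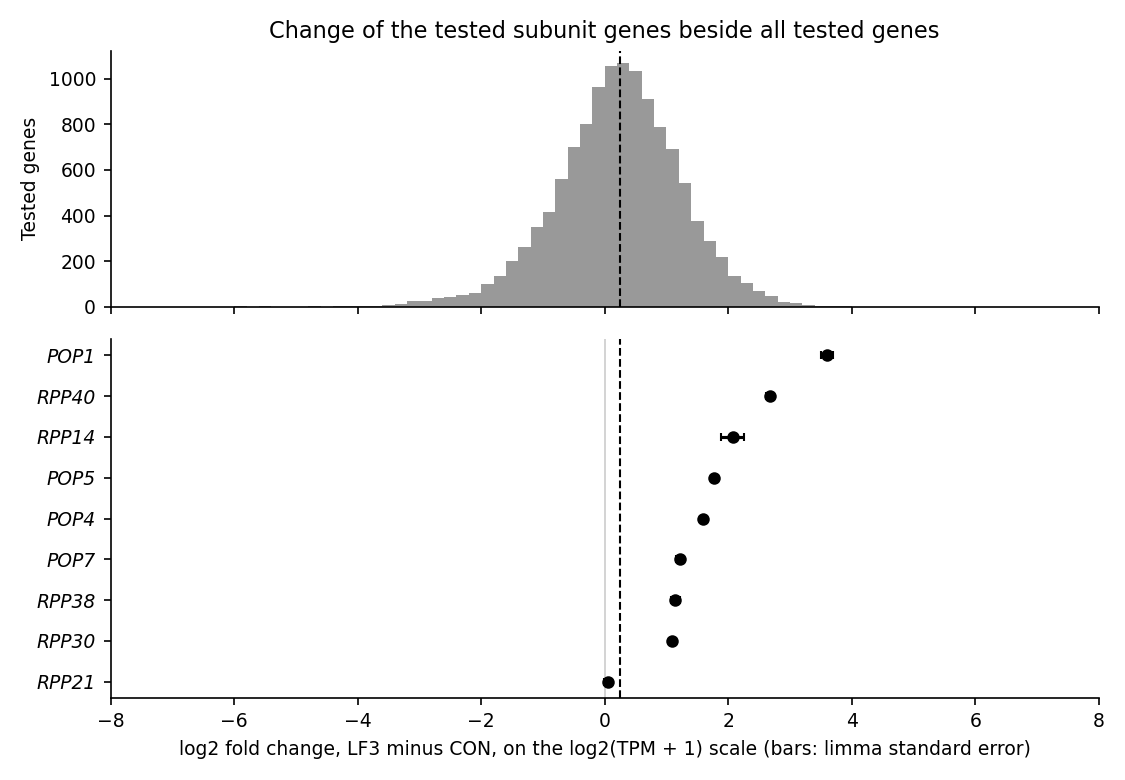
Upper panel: number of tested genes by log2 fold change (LF3 minus CON, log2(TPM + 1) scale). Lower panel: the 9 tested subunit genes with their limma standard error; dashed lines mark the median of all tested genes, 0.24. RPP21 lies at 0.046, left of the dashed line, and the other 8 lie between 1.09 and 3.60.

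Of the 9 tested members, 8 were called higher in LF3 and 0 lower (limma with Benjamini-Hochberg adjustment over all tested genes). Over all tested genes 53.2% were called higher, 32.3% lower and 85.5% in either direction, so calls were common. Nothing is read from the members' count, since it comes from the contrast by which they were picked. POP1 and RPP14 had control means under 1 TPM and passed the filter only through their LF3 libraries. The median log2 fold change of the 9 tested members was 1.59, that of POP4, beside 0.24 for all tested genes. Median-ratio scaling moved the median of all tested genes from 0.24 to -0.0055 and gave 1.33 for the members. It called 8 members higher and 1 lower, beside 42.6% of all tested genes higher and 42.7% lower.

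**Figure D3:**
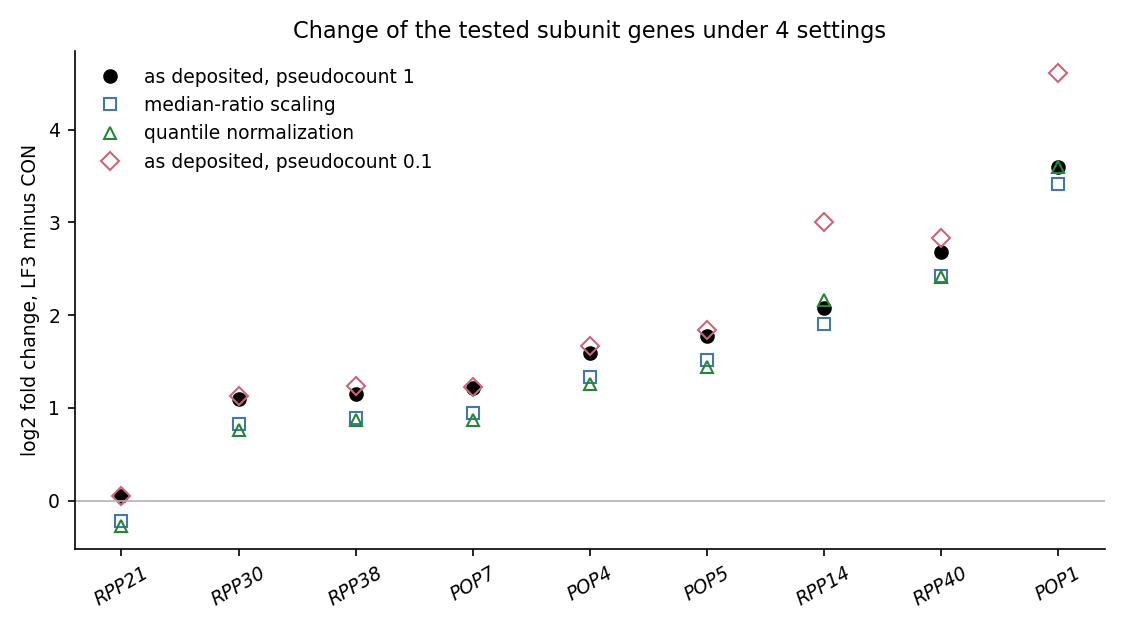
Log2 fold change (LF3 minus CON) of the 9 tested subunit genes as deposited, under the 2 other scalings and with a pseudocount of 0.1. Both scalings put RPP21 below 0 and leave the other 8 above it; the smaller pseudocount moves POP1 to 4.61 and RPP14 to 3.005.

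The order of the subunit levels also differed between the groups. In CON it ran from RPP21 (104 TPM), POP7 (46.4), RPP30 (19.3), POP5 (15.3), POP4 (12.1), RPP38 (8.14) and RPP40 (6.36) to POP1, RPP14 and RPP25 (0.74, 0.73 and 0.61). The last 3 were not separated by the spread between libraries, and each other neighbouring pair in that order was. In LF3 the order was POP7 (109 TPM) and RPP21 (108), whose libraries overlapped, then POP5 (54.9), RPP40 (46.0), RPP30 (42.2) and POP4 (38.7). These 4 fell in separate ranges and were followed by POP1 (20.1) and RPP38 (19.2), whose libraries overlapped, and then by RPP14 (6.30) and RPP25 (0.923). RPP40 thus went from order 7 to order 4.

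Over all 10 genes, the highest member was 150 to 234 times the lowest in the CON libraries and 108 to 127 times the lowest in the LF3 libraries, where RPP25 was the lowest. The distance depended on that gene: with RPP25 left out, it was 114 to 234 in CON and 13.9 to 25.8 in LF3. The lowest of the other 9 members was POP1 or RPP14 in CON and RPP14 in LF3.

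**Figure D4:**
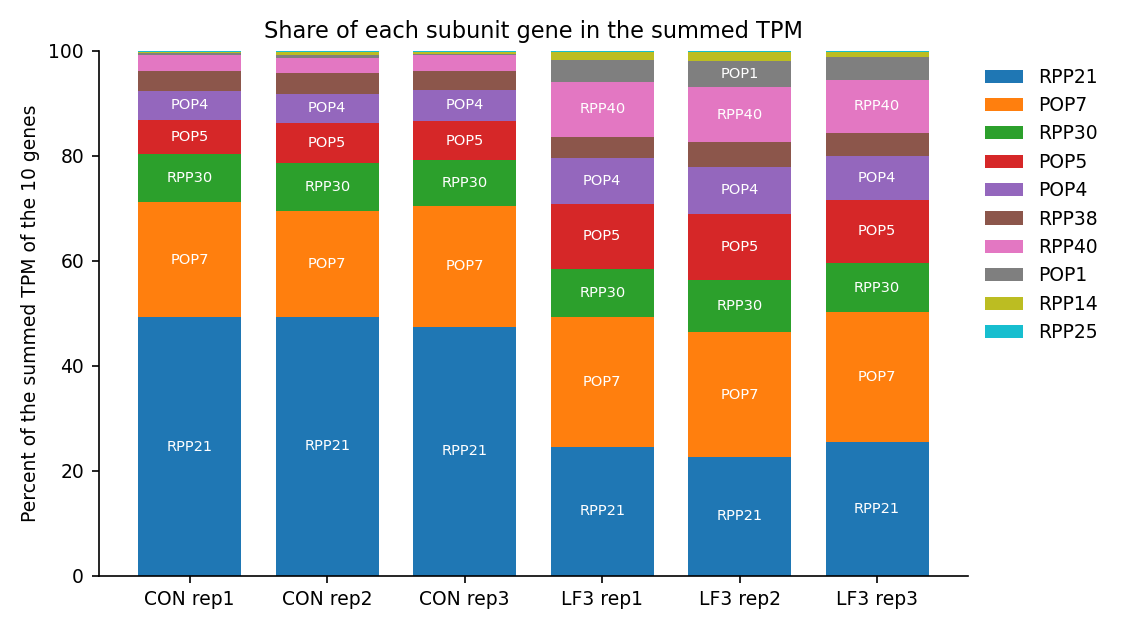
Stacked bars show the percent of the summed TPM of the 10 genes held by each in each library. RPP21 takes 48.65% of the sum on average in CON and 24.2% in LF3, and RPP40 takes 2.98% and 10.35%.

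Shares of the summed TPM set these changes side by side within each library and do not change when a library is divided by a single factor. RPP21 held 48.65 ± 1.085% of the sum in CON and 24.2 ± 1.496% in LF3. POP7 held 21.7 ± 1.47% and 24.4 ± 0.588%, a somewhat higher mean share in LF3. RPP30 held 9.01 ± 0.282% and 9.50 ± 0.387%, a similar share. RPP38 held 3.81 ± 0.21% and 4.33 ± 0.304%, and RPP14 0.342 ± 0.178% and 1.42 ± 0.382%. RPP25 held 0.286 ± 0.0432% and 0.208 ± 0.0119%. Shares were higher in LF3 for POP5 (7.19 ± 0.651% against 12.4 ± 0.364%), POP4 (5.69 ± 0.202% against 8.71 ± 0.264%) and RPP40 (2.98 ± 0.0959% against 10.35 ± 0.1035%). POP1 went from 0.346 ± 0.0828% to 4.52 ± 0.462%.

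Tested genes outside the group that were most like POP1 were sought by the root mean square difference between profiles over the 6 libraries, each profile centred on its own control mean on the log2 scale. The 5 nearest were CTPS1, HNRNPM, CXCL2, TFRC and POLE2, with differences of 0.123 to 0.139. They encode the enzyme that makes CTP, a splicing-associated RNA-binding protein, a neutrophil chemokine, the transferrin receptor and a subunit of DNA polymerase epsilon. HNRNPM averaged 35.4 ± 0.494 TPM in the controls and 405 ± 5.0 TPM in the LF3 group, and POLE2 1.397 ± 0.432 and 25.4 ± 1.31 TPM. The 5 nearest to the mean profile of the tested members were DDX21, MCMBP, NAA20, CENPU and GSR, with differences of 0.0254 to 0.0315. DDX21, a nucleolar RNA helicase, averaged 49.8 ± 1.90 TPM in the controls and 163 ± 7.52 TPM in the LF3 group. With groups this far apart, the measure ranks genes mostly by the size of their change.

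Mitochondria have an RNase P made of protein alone, and its 3 genes were also higher in LF3, all 3 by a called rise. Such calls were common: over all tested genes 53.2% were called higher and 32.3% lower. After median-ratio scaling these shares were 42.6% and 42.7%, and both pairs also stand beside the lists that follow. TRMT10C, which encodes its methyltransferase subunit, averaged 8.20 ± 1.10 TPM in the controls and 45.1 ± 0.775 TPM in the LF3 group (log2 fold change 2.33 ± 0.081, limma adjusted p = 4.56e-10). HSD17B10, the dehydrogenase subunit, stood at 31.1 ± 1.38 and 153 ± 6.87 TPM (2.27 ± 0.050, adjusted p = 1.99e-11). PRORP, the nuclease subunit, stood at 13.5 ± 0.195 and 30.5 ± 1.24 TPM (1.12 ± 0.056, adjusted p = 8.01e-09).

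Genes listed for other steps of tRNA maturation were mostly higher as well. The list for the other end of the tRNA and its CCA tail held 5 genes, not all of them for enzymes. All 5 were called higher (5 after median-ratio scaling), with a median log2 fold change of 1.38. ELAC2, which removes the tRNA trailer, averaged 7.16 ± 0.567 TPM in the controls and 55.6 ± 0.781 TPM in the LF3 group (2.80 ± 0.063, adjusted p = 2.40e-11), and its paralog ELAC1 rose by 2.04 ± 0.12 and the La protein gene SSB by 1.38 ± 0.052. ELAC1 stood at only 0.31, 0.16 and 0.43 TPM in CON and passed the filter only through its LF3 libraries. With a pseudocount of 0.1 its log2 fold change was 3.53. Of 11 genes for tRNA splicing, 10 were called higher and 1 lower (9 and 1 after scaling), with a median of 1.21. The endonuclease gene TSEN15 rose by 2.02 ± 0.053, FAM98B, of the ligase complex, by 1.52 ± 0.063, and C2orf49, of the same complex, fell by 0.69 (SE 0.052).

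The list for tRNA modification held 50 tested genes, not all of them for enzymes. Of these, 46 were called higher and 0 lower (41 and 2 after scaling), with a median of 1.21. WDR4, a subunit of the tRNA guanosine methyltransferase, averaged 1.10 ± 0.445 TPM in the controls and 16.5 ± 0.218 TPM in the LF3 group (3.08 ± 0.13, adjusted p = 2.65e-09). The cytosine methyltransferase gene NSUN2 rose by 2.60 ± 0.040 and the pseudouridine synthase gene PUS7 by 2.57 ± 0.077.

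RNA polymerase III makes precursor tRNAs and the RNA components of both enzymes. Of its 11 listed subunit genes, 9 were called higher and 2 lower (8 and 2 after scaling), with a median of 1.61. POLR3K and POLR3E rose by 2.32 ± 0.055 and 1.84 ± 0.065. POLR3D went the other way, from 45.1 ± 1.62 to 11.8 ± 0.180 TPM (-1.85 ± 0.053, adjusted p = 1.26e-10), and POLR3GL, the alternative to POLR3G, fell by 0.71 (SE 0.056).

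Of 17 genes for the initiation factors of this polymerase and its repressor MAF1, 13 were called higher and 3 lower (12 and 4 after scaling), with a median of 0.65. GTF3C6, GTF3C2 (both of factor TFIIIC) and SNAPC5 rose by 2.10 ± 0.055, 1.13 ± 0.060 and 1.396 ± 0.068, while SNAPC3 and SNAPC2 fell by 1.10 (SE 0.084) and 0.50 (SE 0.053). The SNAPC genes encode the complex that binds promoters such as those of the RNase P and RNase MRP RNAs, and called members of it lay in both directions.

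A further list held 35 genes for processing of the ribosomal RNA precursor and its spacers outside RNase MRP, not all of which cut RNA. Of these, 34 were called higher and 1 lower (33 and 1 after scaling), with a median of 1.47. NIP7 averaged 8.51 ± 0.477 TPM in the controls and 69.8 ± 1.62 TPM in the LF3 group (2.90 ± 0.057, adjusted p = 9.05e-12). The exosome gene EXOSC2 and BOP1, which acts in maturation of the large subunit, rose by 2.89 ± 0.092 and 2.84 ± 0.084. DIS3, a catalytic exosome subunit, fell by 0.55 (SE 0.073). These lists were chosen with earlier results of these data known and are described beside the median of all tested genes, 0.24, and the 53.2% of them called higher.

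**Figure D5:**
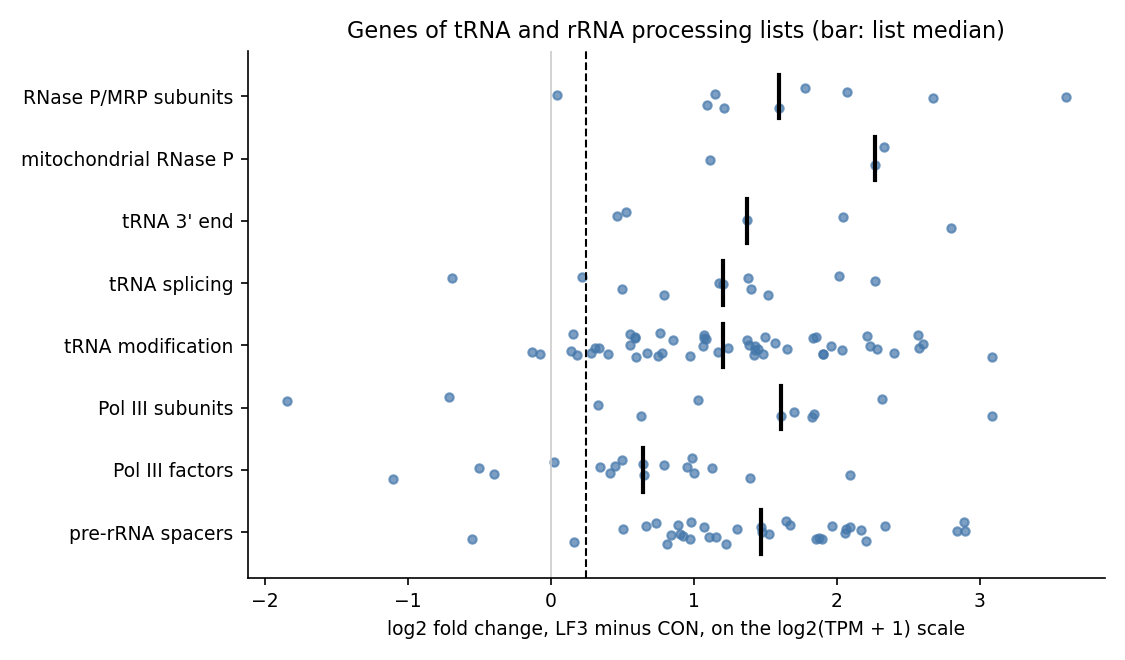
Each point is the log2 fold change (LF3 minus CON, log2(TPM + 1) scale) of a tested gene of the named list, shifted at random along the vertical for display; black bars are list medians and the dashed line is the median of all tested genes, 0.24. List medians run from 0.65 for polymerase III factors to 2.27 for mitochondrial RNase P, and the lowest point is POLR3D at -1.85.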

How the data were processed

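RNA of 6 libraries was sequenced as short single-end reads on a BGISEQ500, per the labels' protocols. HISAT, Bowtie2 and the mouse build GRCm38.p6 are listed in the submitters' processing notes, while the identifiers are human: 17222 (99.7%), including all 10 members, were in RefSeq's GRCh38.p14 table, used for names and overlaps. The deposited TPM table was computed by the authors and keeps no depth.

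On log2(TPM + 1), genes averaging 1 TPM or more (12195 of 17280) were compared with limma 3.58.1 (R 4.3.3, mean-variance trend, two-sided, Benjamini-Hochberg, threshold 0.05). No permutation p is given, since 3 against 3 cannot go below 0.1. Median-ratio scaling divided libraries by their median ratio to the geometric means of tested genes. It was first run with factors over all genes above 0, and was changed to tested genes after that result had been seen; the first version was kept as an added alternative. The members and 11 lists were chosen with earlier results of these data known. Named genes were all members, RPP25L, the mitochondrial enzyme, transcript-sharing genes, per list up to 3 called rises and 2 called falls of largest size, and the 5 nearest profiles; XPOT, RPL7A and single cell markers were named after their values were seen. Some genes that this rule picks are not reported here. On simulated data for this comparison (12102 genes), limma recovered 76% of changes of 0.5 log2 units, 96% of 1 and 100% of 2, and called 9 unchanged genes. In that simulation 49 or 50 genes were changed at each size, in both directions, with no shift common to all genes. Its rates do not carry over to these libraries, where 85.5% of tested genes were called. Alternatives covered the pseudocount (0.1, 0.5), the filter (none, 5 TPM), scaling, the variance model, a replicate block and each library left out. Plots used matplotlib 3.10.9 (Python 3.11.15).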

Additional observations from a re-analysis of the deposited data

How the results depend on the processing

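The members' median log2 fold change was 1.59. It was 1.66 with a pseudocount of 0.1, 1.403 with no filter, which adds RPP25, and 1.403 with a filter of 5 TPM, which removes RPP14. It was 1.33 after median-ratio scaling and 1.26 after quantile normalization. With median-ratio factors over all genes above 0, an alternative added after seeing the data, it was 1.387, with 5455 genes called higher and 4969 lower. RPP21 was at 0.046 as deposited, -0.23 after median-ratio scaling, -0.27 after quantile normalization and -0.17 with the added factors. The members called higher numbered 7 with the 5 TPM filter, where 5702 of all tested genes were called higher. They numbered 9 with no filter (6825 of all tested genes) and 9 without LF3 replicate 2 (6237). The filter changes how many genes are tested, so these counts are not shares and cannot be set beside each other. In the main fit 8 members and 53.2% of all tested genes were called higher. Nothing is read from these counts. Leaving out a library gave 6236 to 6550 genes called higher, 3749 to 3937 called lower and a members' median of 1.57 to 1.61. HTD2 (limma adjusted p = 0.0148 as deposited) lost its call after median-ratio scaling (0.205, adjusted p = 0.211, and 0.25, adjusted p = 0.132, with the added factors). HTD2 kept its call after quantile normalization (0.37, limma adjusted p = 0.034). TRIM39, a neighbour of RPP21, had no call as deposited (-0.098, adjusted p = 0.199). It was called lower after median-ratio scaling (-0.35, and -0.30 with the added factors) and quantile normalization (-0.37). In the labels, same-numbered libraries share only a number. Their deviations from the group means correlated at 0.0476, 0.106 and 0.16 over tested genes. Those of differently numbered libraries correlated at -0.17 to 0.0737. These values do not settle whether the libraries were paired. A replicate block gave 6536 genes higher, 3986 lower and 8 members called higher. The unknown depth limits what can be said of POP1, RPP14 and RPP25 in CON, all near or under 1 TPM.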

Other observations

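RPP38 belongs to a family of RNA-binding proteins with the L7Ae fold, and its 9 listed relatives moved both ways, 3 called higher and 6 lower, where 53.2% of all tested genes were called higher and 32.3% lower. The counts were also 3 and 6 after median-ratio scaling, but 2 and 5 after quantile normalization, where RPL7A, a ribosomal protein gene, went from -0.47 to 0.021 (limma adjusted p = 0.360). The box-snoRNP protein genes NHP2 and SNU13 rose by 1.28 ± 0.054 and 0.98 ± 0.038 on the log2 scale, close in size to RPP38 at 1.15. SECISBP2, which reads selenocysteine signals, rose by 0.45 ± 0.064, a call lost under quantile normalization (0.091, limma adjusted p = 0.155). The stress-response relative GADD45B averaged 73.6 ± 1.04 TPM in the controls and 17.4 ± 1.33 TPM in the LF3 group and fell by 2.02 (SE 0.059), and GADD45G fell by 1.42 (SE 0.17).

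Of 4 genes listed for nuclear export of tRNA, all were called higher as deposited and 3 after median-ratio scaling. Over all tested genes 53.2% and 42.6% were called higher in these settings. The GTPase gene RAN and the exporter genes XPO5 and NXF1 rose by 1.99 ± 0.034, 2.003 ± 0.056 and 1.10 ± 0.056. XPOT, the main tRNA exporter gene, averaged 57.8 ± 1.66 TPM in the controls and 73.0 ± 3.15 TPM in the LF3 group (0.33 ± 0.047, limma adjusted p = 5.12e-05), and its value after median-ratio scaling was 0.062 (limma adjusted p = 0.190) and after quantile normalization -0.030 (adjusted p = 0.502).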
